A study of Mus musculus with 10 samples.

Results

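Genes of the mural cells of blood vessels were followed in interscapular brown adipose tissue (iBAT) of Axl KO mice after a long high-fat diet (HFD). Mural cells are the pericytes of capillaries and the smooth muscle cells of arteries and veins. The 10 genes were given by name as markers of these cells, by a rule that uses no measured value, though earlier results of these mice were known: Pdgfrb, Rgs5, Cspg4, Notch3 and Kcnj8 for pericytes, Acta2, Myh11, Tagln and Cnn1 for contractile smooth muscle, and the channel gene Trpv1. They are 10 of the 41249 gene identifiers counted, and 9 of them passed the limit for testing, a mean above 1 CPM (counts scaled to a common library size) over the 10 mice, as did 13739 genes in all. Whole-depot RNA was sequenced with 1 library per mouse: 5 Axl KO mice and 5 wild-type (WT) mice, all male by the paper's legend. All were fed HFD at room temperature for 24 weeks from an age of 6 to 8 weeks, as labelled. The legend on this RNA sequencing names a slightly longer diet, and the methods name an older start. Axl KO mice carry a constitutive null allele of the receptor tyrosine kinase AXL in the whole body: a cassette with a splice acceptor, LacZ and a neomycin resistance gene in an intron of Axl ends the transcript early. The line came from a pair of embryonic stem cell clones of the EUCOMM programme, and the controls are described as wild-type littermates. The labels give no litter, cage or batch, so p-values measure the spread between these 10 mice. Since each depot holds adipocytes, endothelium, mural cells, fibroblasts and other cells, fewer mural cells and less RNA per mural cell cannot be told apart in any value given here.

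Pericytes sit on the capillary wall and receive PDGF-B, which endothelial cells secrete, through the receptor PDGFRB. NOTCH3 on pericytes and smooth muscle cells is activated by ligands such as JAG1 on neighbouring cells and keeps arterial smooth muscle mature. The contractile genes of smooth muscle are switched on together by serum response factor (SRF) with its partners of the myocardin family, which act through a DNA element known as the CArG box. Brown fat is densely supplied with capillaries, which bring fuel and oxygen and carry heat away, and progenitors of fat cells have been described in the vessel wall.

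Library totals ran from 5431014 to 8214841 counts for Axl KO mice and from 5952427 to 9580215 for WT mice. Axl had 3 to 15 counts in Axl KO and 224 to 383 counts in WT mice, so each library's Axl level was on the side its label gives (log2 fold change −4.77, standard error 0.20, edgeR's adjusted p = 1.10e-07). The adipocyte genes Fabp4 and Ucp1 had means of 6391 and 4119 CPM in WT mice, so the genes of brown fat were abundant. The level of skeletal muscle genes differed widely between libraries: the summed level of 15 such genes ran from 91.8 to 4066 CPM in Axl KO and from 1007 to 4726 CPM in WT mice, with Axl KO replicates 1 and 2 lowest. All 15 had a lower mean in Axl KO mice, and 0 of the 15 passed the threshold. One of them, Myh7, was at 0 in an Axl KO library, and the other 14 were above 0 in every library. Muscle lies next to this depot, and the part of its RNA in the values below was not tested beyond the fits with a covariate.

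None of the pericyte genes and none of the contractile genes passed the threshold for a difference between Axl KO and WT mice, an adjusted p under 0.05 (edgeR, quasi-likelihood test, Benjamini-Hochberg method over all 13739 genes). The 4 pericyte genes Rgs5, Cspg4, Pdgfrb and Notch3 had means in Axl KO mice between 75.9 and 92.1% of those in WT mice, and the groups overlapped for each. The remaining pericyte gene, Kcnj8, was at 97.8% of WT. The contractile genes Acta2, Myh11 and Tagln lay between 94.8 and 101% of WT, and Cnn1, at few counts, was at 103%. Of all genes tested, 0.00728% passed this threshold, which is 1 gene, Axl itself, and 0 of the 9 mural genes did. At an unadjusted p under 0.05 there was 1 of 9, Notch3, against 8.40% of all tested genes. With DESeq2, 0 of 9 had an adjusted p under 0.05, and an unadjusted p under 0.05 was found for 2 of 9, Notch3 and Rgs5, against 6.93% of all genes tested with DESeq2.

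**Figure D1:**
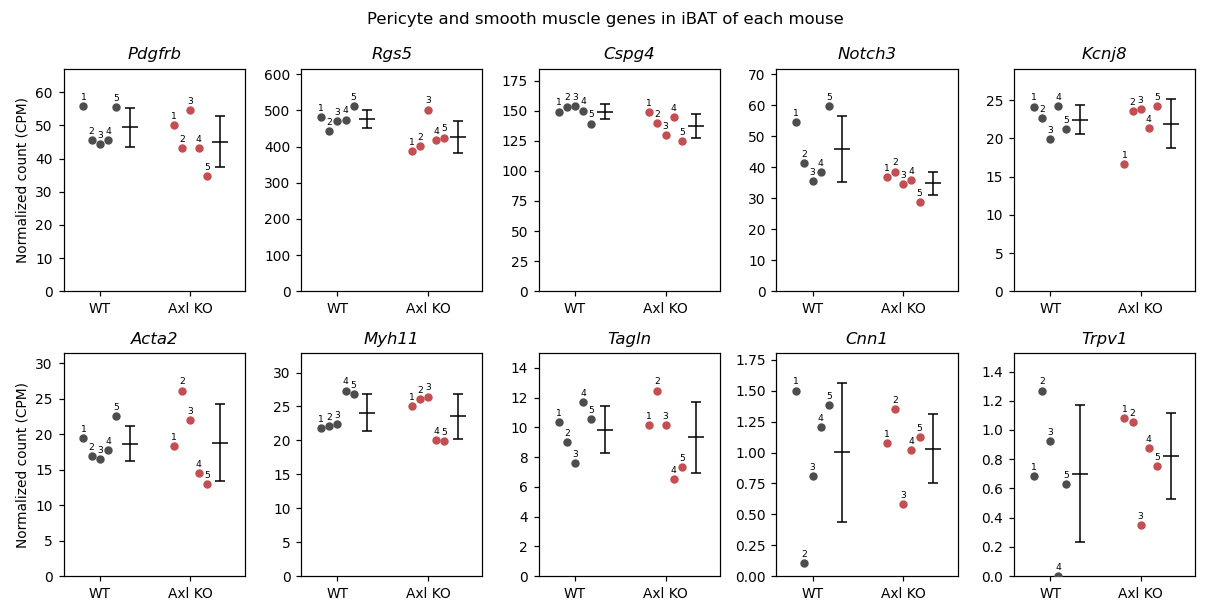
Normalized counts (CPM, vertical axes from 0) of the 10 genes in 5 WT mice (grey) and 5 Axl KO mice (red). Each point is 1 mouse with its replicate number, and the bars give the mean ± SD; the groups overlap in every panel, and Notch3 of WT replicates 1 and 5 lies above all other mice.

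The genes were expressed at very different levels. On the scale of CPM per kb of exon, which allows genes of different length to be compared, Rgs5 stood far above the others with 105 ± 5.56 (SD, n = 5) in WT and 94.1 ± 9.74 (SD, n = 5) in Axl KO mice. Cspg4 followed with 12.5 ± 0.497 CPM per kb in WT mice, and lay above the next gene, Pdgfrb, in all 10 mice. Pdgfrb (9.02 ± 1.06), Kcnj8 (8.81 ± 0.738) and Acta2 (8.49 ± 1.12 CPM per kb, WT) could not be ordered: the ranges of neighbours overlapped, and Pdgfrb was above Kcnj8 in 5 of 10 mice. Notch3 (5.69 ± 1.32) and Tagln (4.96 ± 0.789 CPM per kb, WT) also overlapped, with Notch3 above Tagln in 5 of 10 mice. Myh11 was lower, at 3.17 ± 0.358 CPM per kb, and below Tagln in all 10 mice. Cnn1 (0.366 ± 0.206) and Trpv1 (0.191 ± 0.127 CPM per kb, WT) were the lowest, with ranges that overlapped. Dividing by the longest transcript instead of the joined exons gave 18.4 CPM per kb for Cspg4 and 116 for Rgs5 in WT mice and put Acta2 (9.16) and Pdgfrb (9.12) above Kcnj8 (8.81), and Tagln (6.18) above Notch3 (5.74).

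**Figure D2:**
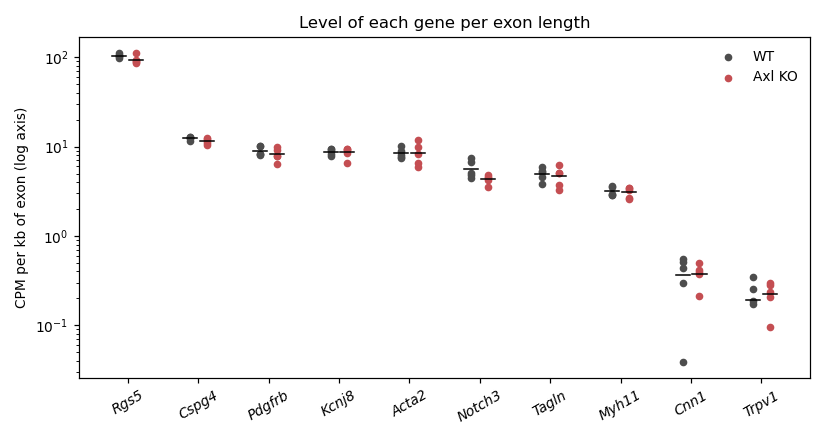
Level of each gene in CPM per kb of exon (log axis), 1 point per mouse (WT grey, Axl KO red) with the group mean as a line, ordered by the WT mean. Rgs5 is near 100, Cspg4 to Myh11 lie between about 3 and 13, and Cnn1 and Trpv1 lie below 1; the WT mouse with 0 Trpv1 counts cannot be drawn on a log axis.

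Rgs5 (ENSMUSG00000026678, GRCm38 chromosome 1 from 169655501 to 169695813, forward strand) encodes a regulator that shortens G protein signaling and is a classic pericyte marker. In Axl KO replicates 1 to 5 it was at 389, 403, 503, 419 and 425 CPM, and in WT replicates 1 to 5 at 481, 443, 470, 475 and 513 CPM. Of the Axl KO mice 4 lay below the lowest WT mouse, and Axl KO replicate 3 lay above 4 of the WT mice. The Axl KO mean of 428 ± 44.3 and the WT mean of 476 ± 25.3 CPM (SD over 5 mice each) gave a log2 fold change of −0.16 (standard error 0.075, 95% interval −0.32 to 0.0060, edgeR's adjusted p = 0.601). A two-sided exact permutation test over the 10 mice gave p = 0.0794. With 2259 to 4312 counts per mouse, counting alone gives a coefficient of variation near 1.8%, well below the 10.4% seen among Axl KO mice. Without Axl KO replicate 3 the log2 fold change was −0.22, the lowest with any single mouse removed (unadjusted p 0.00301, adjusted p 0.152, edgeR). In that fit 2027 of 13719 tested genes had an unadjusted p under 0.05, against 1154 of 13739 with all mice. As a covariate with all mice, the skeletal muscle markers brought the log2 fold change of Rgs5 to −0.088 and the endothelial markers to −0.077.

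Cspg4 (ENSMUSG00000032911, chromosome 9 from 56865033 to 56899870, forward strand) encodes the proteoglycan NG2 on the pericyte surface. Axl KO replicates 1 to 5 had 149, 139, 130, 144 and 125 CPM, and WT replicates 1 to 5 had 149, 153, 154, 150 and 139 CPM. The WT mice were tightly grouped, and 4 of them lay above every Axl KO mouse, whereas WT replicate 5 lay inside the Axl KO range. WT replicate 1, at 149.2 CPM, was only narrowly above Axl KO replicate 1, at 148.7 CPM. The log2 fold change was −0.12 (standard error 0.061, 95% interval −0.25 to 0.013, edgeR's adjusted p = 0.610; two-sided exact permutation test, p = 0.0556). The interval spans 0.841 to 1.01 times the WT level. With the skeletal muscle or the endothelial markers as a covariate the log2 fold change was −0.17 and −0.16 (unadjusted p 0.0329 and 0.0219, adjusted p 0.726 and 0.912, edgeR).

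Pdgfrb (ENSMUSG00000024620, chromosome 18, forward strand), the PDGF-B receptor, is also expressed by fibroblasts and fat cell progenitors. It was at 50.1, 43.1, 54.7, 43.2 and 34.6 CPM in Axl KO replicates 1 to 5 and at 56.0, 45.5, 44.5, 45.6 and 55.6 CPM in WT replicates 1 to 5. Of the WT mice 3 lay between 44.5 and 45.6 CPM and the other two between 55.6 and 56.0 CPM, and Axl KO replicate 5 was the lowest of all. Its log2 fold change was −0.12 (standard error 0.12, 95% interval −0.38 to 0.13, edgeR's adjusted p = 0.781; two-sided exact permutation test, p = 0.357). It was −0.048 without Axl KO replicate 5 and −0.21 without Axl KO replicate 3, and it was −0.033 with the endothelial markers as a covariate.

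Notch3 (ENSMUSG00000038146, chromosome 17 from 32120820 to 32166852, reverse strand) differed most. Axl KO replicates 1 to 5 had 36.7, 38.6, 34.6, 35.8 and 28.8 CPM, and WT replicates 1 to 5 had 54.6, 41.4, 35.6, 38.5 and 59.9 CPM. WT replicates 1, 2 and 5 lay above every Axl KO mouse, and WT replicates 3 and 4 lay among them. The Axl KO mean was 34.9 ± 3.72 and the WT mean 46.0 ± 10.6 CPM (SD over 5 mice each). This is a log2 fold change of −0.40 (standard error 0.14, 95% interval −0.70 to −0.093), with an unadjusted p of 0.0146 and an adjusted p of 0.571 in edgeR's test and p = 0.0556 in a two-sided exact permutation test. Without WT replicate 5 it was −0.28. That mouse also had the highest summed level of 14 endothelial markers, 980 CPM, against 680 to 748 CPM in the other WT and 667 to 815 CPM in Axl KO mice; none of the 14 was at 0. With the endothelial markers as a covariate, the log2 fold change of Notch3 was −0.26 (unadjusted p 0.0872), and with the skeletal muscle markers it was −0.53 (unadjusted p 0.00434, adjusted p 0.726, edgeR). The part of endothelial RNA in this difference was not tested beyond that fit. On the opposite strand an antisense gene, Gm17276, shares 488 exon bases with Notch3. It had 65 counts over all mice against 2990 for Notch3, and the strand setting of the counting is not given in the sources used here.

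Kcnj8 (ENSMUSG00000030247, chromosome 6 from 142564837 to 142571614, reverse strand) encodes the pore of the ATP-sensitive potassium channel of mural cells. It was at 16.7, 23.6, 23.8, 21.4 and 24.3 CPM in Axl KO and at 24.2, 22.6, 19.9, 24.2 and 21.3 CPM in WT replicates 1 to 5. Apart from Axl KO replicate 1 the mice lay between 19.9 and 24.3 CPM. For Kcnj8 the log2 fold change was −0.029 (standard error 0.10, 95% interval −0.25 to 0.20, edgeR's adjusted p = 0.958; two-sided exact permutation test, p = 0.810) and was 0.055 without Axl KO replicate 1. Abcc9, which encodes the regulatory subunit of the same channel, had an Axl KO mean of 83.7 ± 9.69 and a WT mean of 93.5 ± 5.71 CPM (SD over 5 mice each), which is −0.16 on the log2 scale (edgeR's adjusted p = 0.608).

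Acta2 (ENSMUSG00000035783, chromosome 19 from 34241090 to 34255590, reverse strand) encodes smooth muscle α-actin. Axl KO replicates 1 to 5 had 18.4, 26.2, 22.0, 14.6 and 13.0 CPM, and WT replicates 1 to 5 had 19.5, 16.9, 16.5, 17.7 and 22.5 CPM. The Axl KO mice held both the highest value (replicate 2) and the lowest (replicate 5), and their coefficient of variation was 28.7% against 13.2% in WT mice; this difference in spread was not tested. The means were nearly equal, 18.8 ± 5.397 and 18.6 ± 2.45 CPM (SD, n = 5 each). The log2 fold change was 0.024 (standard error 0.17, edgeR's adjusted p = 0.982; two-sided exact permutation test, p = 0.937), and its 95% interval runs from 0.789 to 1.31 times the WT level. The actin genes are close in sequence, so reads shared with Acta1 of skeletal muscle or Actg2 could have been counted on Acta2 or lost.

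Myh11 (ENSMUSG00000018830, chromosome 16 from 14194535 to 14291372, reverse strand), the myosin heavy chain specific to smooth muscle, was at 25.0, 26.2, 26.5, 20.1 and 19.9 CPM in Axl KO and at 21.8, 22.1, 22.4, 27.3 and 26.8 CPM in WT replicates 1 to 5. In both groups some mice lay between 19.9 and 22.4 CPM and the others between 25.0 and 27.3 CPM. The log2 fold change was −0.026 (standard error 0.11, 95% interval −0.26 to 0.20, edgeR's adjusted p = 0.966; two-sided exact permutation test, p = 0.794).

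Tagln (ENSMUSG00000032085, chromosome 9 from 45929619 to 45936058, reverse strand) encodes transgelin, an actin-binding protein. Its values were 10.2, 12.5, 10.1, 6.55 and 7.34 CPM in Axl KO and 10.4, 8.99, 7.63, 11.7 and 10.6 CPM in WT replicates 1 to 5, and the groups overlapped. Transgelin RNA differed by −0.062 on the log2 scale (standard error 0.18, 95% interval −0.45 to 0.32, edgeR's adjusted p = 0.941; two-sided exact permutation test, p = 0.706). Genes on the opposite strand cover part of its exons: Gm48529 shares 62.4% of them and had 99 counts over all mice, against 699 for Tagln, and Pcsk7, with 2127 counts, shares 5.43%. Without a known strand setting, reads of these genes and of Tagln cannot be told apart where they overlap.

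Cnn1 (ENSMUSG00000001349, chromosome 9 from 22099216 to 22109630, forward strand), which encodes calponin, was barely above the limit for testing. It had 7, 9, 5, 7 and 6 counts in Axl KO and 11, 1, 7, 7 and 11 counts in WT replicates 1 to 5. At such counts, counting alone gives a coefficient of variation of 36.8 to 38.3%. The spread seen was 27.2% in Axl KO and 56.4% in WT mice, where replicate 2 had the single count. On the log2 scale the difference was 0.073 (standard error 0.46, edgeR's adjusted p = 0.979; two-sided exact permutation test, p = 0.929), and its 95% interval runs from 0.526 to 2.104 times the WT level.

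Trpv1 (ENSMUSG00000005952, chromosome 11 from 73234292 to 73261242, forward strand) encodes a cation channel opened by heat and capsaicin, best known from sensory neurons and also found in some vascular smooth muscle. It had 7, 7, 3, 6 and 4 counts in Axl KO and 5, 12, 8, 0 and 5 counts in WT replicates 1 to 5. The Axl KO mean was 0.822 ± 0.296 and the WT mean 0.701 ± 0.466 CPM (SD over 5 mice each), below the limit for testing. The groups overlapped (two-sided exact permutation test on the CPM, p = 0.635). The 0 of WT replicate 4 allows a level of up to 0.504 CPM (3 counts in that library, counting error only). The sensory neuron genes Scn10a and Tac1 had 0 counts in all 10 libraries, Prph had 1 count in all, Tubb3 had 22, Calca had 26 and Avil had 42, beside 57 for Trpv1.

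**Figure D3:**
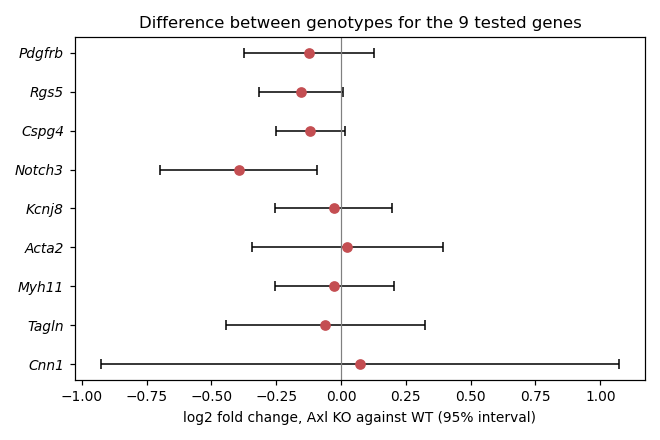
Log2 fold change of Axl KO against WT mice for the 9 tested genes, with 95% intervals from edgeR's quasi-likelihood fit (points left of 0 are lower in Axl KO mice). The interval of Notch3 alone leaves out 0 before adjustment for the 13739 genes tested, and that of Cnn1 is the widest.

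Of the 9 tested genes, 7 had a log2 fold change below 0 and 2 above it. Their median was −0.062, beside −0.00059 over all genes tested, of which 50.2% were below 0. The groups of 5 mice overlapped for all 10 genes, and 1.35% of the tested genes had groups that did not overlap. With 5 mice against 5, the smallest p that the exact permutation test can give is 0.00794. The values of 0.0556 for Cspg4 and Notch3 in that test lay above it. Whether 5 mice per group suffice to detect differences of this size was not tested.

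Within genotypes, the contractile genes varied together from mouse to mouse. After each genotype's mean was subtracted from log2(CPM + 1), Pearson's r over the 10 mice was 0.78 between Acta2 and Myh11, 0.84 between Acta2 and Tagln and 0.85 between Myh11 and Tagln (Spearman's rho 0.67, 0.76 and 0.81). Leaving out the 2 mice farthest from the median of the first gene gave r of 0.71, 0.74 and 0.73. These 3 genes were high together in Axl KO replicate 2 and low together in Axl KO replicates 4 and 5. Cnn1 followed them loosely (r of 0.18 to 0.29), at its few counts.

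The pericyte genes did not form such a group. Their 10 pairwise r ran from −0.69 to 0.71, with 5 above 0. Cspg4 ran against Rgs5 (r = −0.69, rho −0.77, and r = −0.60 without the 2 farthest mice) and against Kcnj8 (r = −0.60). Axl KO replicate 3 shows the first pattern, with the highest Rgs5 of its group at 503 CPM and a low Cspg4 at 130 CPM. Pdgfrb went with Notch3 (r = 0.71) and Notch3 with Acta2 (r = 0.63), with r of 0.84 and 0.59 without the 2 farthest mice. Between Pdgfrb and Acta2 r was 0.65 and 0.36 without them. The 10 points share their libraries and normalization, so these correlations are a description of these mice only.

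**Figure D4:**
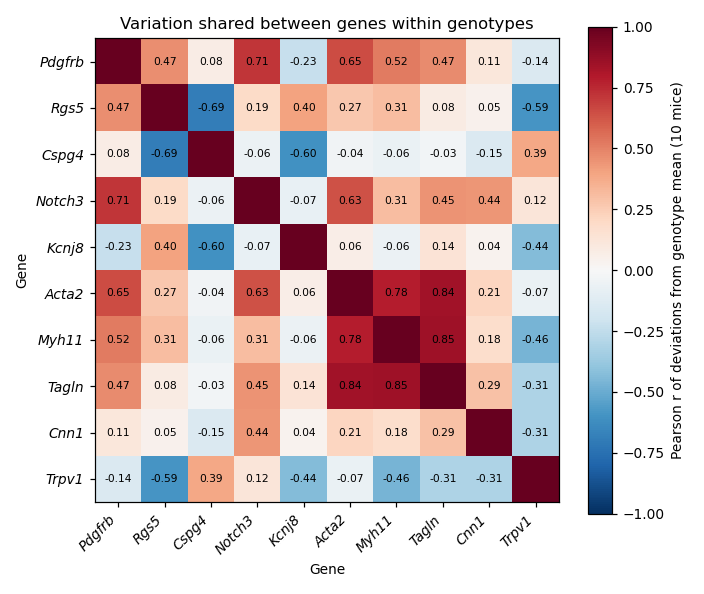
Pearson's r between the deviations of each pair of genes from the genotype mean of log2(CPM + 1) over 10 mice (red positive, blue negative, with the value in each cell). Acta2, Myh11 and Tagln form a block of 0.78 to 0.85, and Cspg4 is at −0.69 with Rgs5 and −0.60 with Kcnj8.

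Outside the gene lists, the 5 genes whose deviations were most like the mean of Acta2, Myh11, Tagln and Cnn1, out of 10256 with a mean above 5 CPM, were Phf21a (r = 0.92), Commd7 (0.91), Mta1 (0.90), Maml2 (0.90) and Cog5 (0.88). Maml2 encodes a coactivator of Notch signaling. Its Axl KO level was lower by a log2 fold change of −0.44 (unadjusted p 0.00439, adjusted p 0.571, edgeR). The 5 genes most like the mean of the pericyte genes were Ccnd1 (r = 0.95), Ets1 (0.94), Dgke (0.94), Lynx1 (0.93) and Zfp608 (0.93). ETS1 is a transcription factor of endothelial and other cells. Both sets of 5 are the highest of 10256 correlations over 10 mice, and how high r becomes by such a pick alone was not tested. The pericyte mean also pools genes that did not vary together. The mean of the 14 endothelial markers had an r of 0.72 with the pericyte genes (rho 0.70) and 0.34 with the contractile genes (rho 0.33). The endothelium did not stand alone: immune markers had 0.60 with the pericyte genes, and fibroblast markers 0.44 with the contractile genes. Without the 2 mice farthest from the group's median these were 0.39 and 0.18. The endothelial markers then had 0.78 with the pericyte and 0.36 with the contractile genes. The list of ligands and receptors of endothelium and mural cells had 0.70 with the pericyte genes, and 0.83 without those mice. The further pericyte list had 0.29 with the pericyte genes, and −0.36 without the 2 mice farthest from the group's median. Likewise the further smooth muscle list had −0.19 with the contractile genes, and −0.57 without them. With the contractile genes, the skeletal muscle markers had an r of −0.50 (rho −0.56). The further smooth muscle list, which holds the tropomyosins, had its lowest sums, 227 and 233 CPM, in Axl KO replicates 2 and 1, where the skeletal muscle sum was lowest, and 601 to 644 CPM in Axl KO replicate 5 and WT replicates 1 and 3, where that sum was highest.

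Since SRF is known to act on contractile genes through the CArG box, the promoters were searched for it. The box was taken as the letters CC, a core of 6 bases that are A or T, and GG. It reads the same on both strands in this form. RefSeq promoter windows on GRCm38.p6, from 250 bases before to 50 after the gene start, were matched for 7 of the 10 genes: Rgs5, Kcnj8, Cnn1, Cspg4, Trpv1, Notch3 and Acta2. Myh11 and Tagln, which moved most closely with Acta2, had no matched window. The search therefore could not say whether the genes that moved together share a box. A box without mismatch was found in 1 of the 7, Trpv1, and in 1.63% of all 32851 windows. With 1 core base that is neither A nor T, a search added after the first was seen, Acta2 had 2 boxes, against 8.50% of all windows with at least 1. Srf itself had 2 boxes without mismatch, and Myl9, the regulatory myosin light chain of smooth muscle, had 1, the only exact match in 18 windows of the further smooth muscle list. Exact boxes were also in 2 of 12 windows of the skeletal muscle markers, those of Acta1 and Myh4. The boxes of 4 genes are shown for 30 bases in the direction of the gene, with the box in capitals, to let the contractile gene Acta2 be set beside Trpv1 and the 2 other genes of this programme.
Acta2, chr19:34255438-34255467, reverse strand: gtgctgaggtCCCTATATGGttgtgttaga
Acta2, chr19:34255388-34255417, reverse strand: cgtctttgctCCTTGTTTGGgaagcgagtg
Trpv1, chr11:73233943-73233972, forward strand: ctgtgagagtCCTTTAAAGGagctacttcc
Srf, chr17:46556225-46556254, reverse strand: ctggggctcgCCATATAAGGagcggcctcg
Srf, chr17:46556205-46556234, reverse strand: agcggcctcgCCATAAAAGGaaacattgta
Myl9, chr2:156775293-156775322, forward strand: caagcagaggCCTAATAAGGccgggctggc
Counted from the RefSeq gene start, the boxes of Acta2 begin at −84 and −34 and that of Trpv1 at −196. The RefSeq starts differ from the ends of the GENCODE spans given above, and the boxes of Acta2 lie inside its GENCODE span. The letters GTGGGAA, the core of the site of the Notch effector RBPJ, were searched on both strands and found in 6.38% of all windows and in 0 of the 7 mural genes. Over all lists 8 genes held them, Hey2, Ebf1 and Tbx18 among the transcription factors. Such matches describe letters in these windows and show no binding.

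SRF and its coactivators showed no difference past the threshold. Srf had means of 16.8 ± 1.75 CPM in Axl KO mice and 17.2 ± 1.11 CPM in WT mice (SD over 5 mice each). The coactivator genes Mrtfa and Mrtfb had log2 fold changes of 0.082 and −0.14, and Myocd, with 22 counts over all mice, was too low to test. Of 16 genes listed for transcription factors of mural cells, 13 were tested, 0 passed the threshold, and the median log2 fold change was −0.086 with 9 lower. Other cells of the depot may express them too, and their part was not tested. The lowest were Foxs1 (−0.70, unadjusted p 0.0498) and Mef2c (−0.39), and the highest were Ebf1 (0.16) and Hey2 (1.09, unadjusted p 0.0177, adjusted p 0.571, edgeR). Mef2c was highest in WT replicates 1 and 3 (44.2 and 38.0 CPM) and Axl KO replicate 5 (39.3 CPM), where the skeletal muscle sum was also highest. Hey2 was the 1 of 13 higher at an unadjusted p under 0.05, beside 4.54% of all genes tested. Hey2 was at 4.17, 1.503, 1.98, 2.33 and 6.21 CPM in Axl KO and at 1.77, 0.741, 1.97, 1.72 and 1.26 CPM in WT replicates 1 to 5, so the largest values came from Axl KO replicates 1 and 5, and the groups overlapped (two-sided exact permutation test, p = 0.0556). With the skeletal muscle markers as a covariate, the log2 fold change of Hey2 was 1.37 (unadjusted p 0.00650, adjusted p 0.726, edgeR). With the endothelial markers it was 0.83 (unadjusted p 0.0778, edgeR). Among other genes that answer to Notch, Heyl had −0.22, Hes1 −0.32 and Hey1 0.019 on the log2 fold change scale, and Jag1 had 0.021.

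Signals that pass between endothelium and mural cells were measured with 22 genes, of which 21 were tested. None passed the threshold, 13 were lower and 8 higher, and the median log2 fold change was −0.049. The lowest were Dll4 (−0.35), an endothelial Notch ligand, and Angpt1 (−0.32, unadjusted p 0.0306), a ligand of the endothelial receptor TIE2, and the highest were Eng (0.11) and Edn1 (0.31), which encodes the vasoconstrictor endothelin. Pdgfb, the ligand of PDGFRB, had −0.22, and Pdgfd, another ligand of that receptor, had −0.21 (unadjusted p 0.0265, adjusted p 0.571, edgeR). With the skeletal muscle or the endothelial markers as a covariate, the unadjusted p of Pdgfd was 0.0660 and 0.0736. That of Angpt1 was 0.0708 and 0.0272 (adjusted p 0.758 and 0.912, edgeR). The PDGF ligands were named after their values were seen.

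A further 15 genes listed as enriched in pericytes had 14 tested, with 11 lower, 3 higher, 0 past the threshold and a median log2 fold change of −0.15. The lowest were Anpep (−0.46) and Art3 (−0.43), and the highest were Higd1b (0.34) and Steap4 (0.41). Anpep had an unadjusted p of 0.0302 and Art3 of 0.0307 (adjusted p 0.571 for both, edgeR). With the skeletal muscle or the endothelial markers as a covariate, it was 0.0646 and 0.0358 for Anpep. For Art3 it was 0.0346 and 0.0773. Of 21 further smooth muscle genes, 17 were tested, with 14 lower, 3 higher, 0 past the threshold and a median of −0.31. Tpm2 (−0.92) and Pcp4l1 (−0.73) were lowest, and Mustn1 (0.23) and Nrip2 (0.41) highest. Tropomyosins are also made by skeletal muscle: Tpm2 ran from 7.06 to 213 CPM in Axl KO mice and from 48.7 to 205 CPM in WT mice. Pcp4l1 was highest in Axl KO replicate 5 (2.45 CPM) and WT replicates 1, 3 and 4 (2.18, 2.08 and 2.41 CPM). The skeletal muscle sum was highest in those same mice. Without Tpm1 and Tpm2, left out after the values were seen, the median of the smooth muscle list was −0.14. With the skeletal muscle markers as a covariate, that of the whole smooth muscle list was −0.078 and that of the pericyte list −0.091. The 9 tested mural genes then had a median of −0.17. Which cells of the depot supplied the RNA of the genes in these lists was not tested.

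Mrvi1, which encodes a substrate of cGMP-dependent kinase that relaxes smooth muscle, was the 1 gene of the 5 mural lists whose groups did not overlap. It was at 7.41, 5.71, 7.34, 7.71 and 6.21 CPM in Axl KO and at 8.05, 9.20, 7.98, 8.08 and 9.44 CPM in WT replicates 1 to 5. The gap between the highest Axl KO and the lowest WT mouse was narrow, on 33 to 87 counts per mouse. Its log2 fold change was −0.31 (standard error 0.12, edgeR's adjusted p = 0.571; exact permutation test, two-sided, p = 0.00794, the smallest possible with 5 mice against 5). It is 1 of 74 tested genes, or 1.35%, equal to the background of 1.35% in either direction, of which 0.619% were lower in Axl KO mice. The 74 include genes that other cells also express, such as Dll4 of the endothelium and the tropomyosins of skeletal muscle. An unadjusted p under 0.05 was found for 9 of the 74, or 12.2%, 8 of them lower, beside 8.40% of all tested genes in either direction and 3.86% lower. With the skeletal muscle markers as a covariate it was 7 of 74, or 9.46%, beside 6.71% of all tested genes, and with the endothelial markers 5 of 74, or 6.76%, beside 5.08%. For Mrvi1 the unadjusted p was then 0.0603 and 0.0742.

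**Figure D5:**
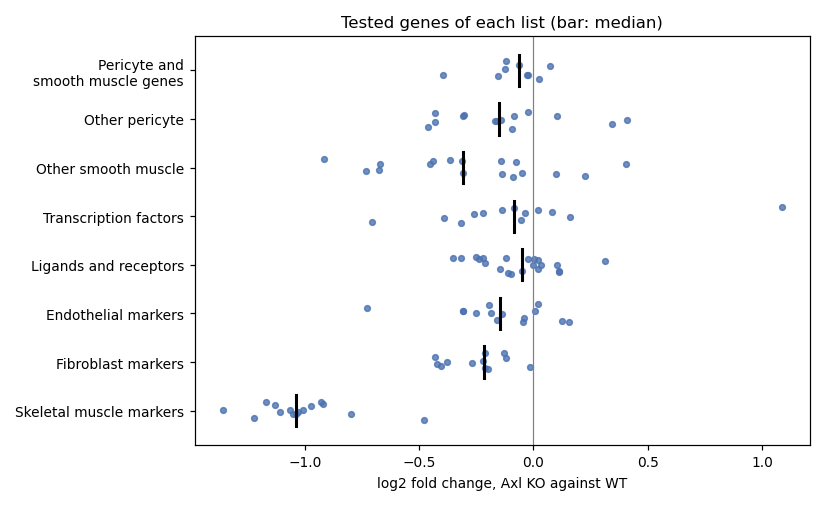
Log2 fold change of Axl KO against WT mice for each tested gene (points, spread vertically at random) of the 5 mural lists and of 3 lists of other cell types, with the median of each list as a bar. The median of the 9 mural genes is −0.062, the 14 pericyte and 17 smooth muscle genes lie at −0.15 and −0.31, and the 15 skeletal muscle markers at −1.04.

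Markers of the other cells of the depot were at these levels beside the mural genes. Of 14 endothelial markers 10 were lower (median log2 fold change −0.15), and the most abundant, Kdr and Pecam1, had 0.021 and −0.040. All 12 fibroblast and progenitor markers, of which Col3a1 and Dcn were the most abundant, were lower (median −0.22), and their summed level was 520 to 877 CPM in Axl KO and 744 to 989 CPM in WT mice. Of 10 adipocyte genes 8 were higher (median 0.094), with 0.15 for Fabp4 and 0.43 for Ucp1, the most abundant. At an unadjusted p under 0.05 (edgeR) 4 of the 10 were higher and 0 lower, beside 4.54% of all tested genes higher. Groups did not overlap for 2 of the 10, beside 1.35%. At that p, 2 of the 14 endothelial and 2 of the 12 fibroblast markers were lower and 0 higher, beside 3.86% lower. Of 5 tested immune genes 3 were higher (median 0.018), with 0.018 for Lyz2 and −0.080 for Ptprc, the most abundant. Of 3 tested nerve and Schwann cell genes 2 were lower (median −0.046), with −0.046 for S100b and 0.10 for Mbp. None of these markers had an adjusted p under 0.05. The summed level of the 10 mural genes, mostly Rgs5, was 680 to 805 CPM in Axl KO and 755 to 851 CPM in WT mice. The part of fibroblast RNA in the values of Pdgfrb, which those cells also express, was not tested.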

How the data were processed

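Whole iBAT RNA of 10 mice was analysed from raw counts per Ensembl gene, which the authors deposited as 1 table per mouse, without normalization. The paper's methods name Trim Galore and hisat2 on GRCm38, whereas the submitters' processing notes name Trimmomatic 0.36 and STAR 2.6.1c on GRCm38.p5. They also differ on polyadenylated or rRNA-depleted RNA, and the counting tool and strand setting are not given in the sources used here. Of 41249 identifiers, 41163 are in GENCODE M21, which gave symbols, positions and exon lengths. Counts were normalized by TMM and compared in R 4.3.3 with edgeR 4.0.16 (quasi-likelihood test, no covariate, genes with a mean above 1 CPM, Benjamini-Hochberg adjustment over all tested genes). Standard errors are the size of the log2 fold change divided by the square root of F. Single genes were compared by two-sided exact permutation tests of the mean CPM. The labels name no pairs, and the deviations of same-numbered mice had correlations from −0.36 to 0.37, so no pairing was used. The smallest chi-square per gene between a pair of libraries was 5.15, so none was a repeat of another library. Each mouse was taken as 1 replicate, and a shared litter or cage was not tested. Depth was 5431014 to 9580215 counts, so intervals at low counts are wide.

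The members and lists were chosen with earlier results of these data known. There were 5 mural lists (the 10 genes, other pericyte, other smooth muscle, transcription factors, ligands and receptors) and 6 marker lists (endothelial, fibroblast, skeletal muscle, nerve and Schwann cell, adipocyte, immune). Genes named beyond the 10 are Axl, the 2 highest and 2 lowest of each mural list, those without overlap between groups, the 2 most abundant of each marker list and the 5 most like each gene group; Abcc9, Srf and its coactivators, Myl9, Notch targets and ligands, PDGF ligands, Myocd, Myh7, Tbx18 and the sensory neuron genes were named after their values were seen. Alternatives were DESeq2 1.42.0, RLE factors, total counts, edgeR's filterByExpr, no filter, a robust fit, each mouse left out, a block for the replicate number, only protein-coding genes, and skeletal muscle or endothelial markers as a covariate. The list medians and counts with a covariate or without tropomyosins and the CArG search with a mismatch were chosen after seeing the data.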

Additional observations from a re-analysis of the deposited data

Results flagged for a closer look

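In groups of 5 mice, a mouse was picked out when its gap to the nearest other mouse was above 0.71 of the group's range. Of 44 such groups, 3 held one, where chance gives about 2.2 (5% of groups). The summed level of the 10 mural genes in Axl KO replicate 3 was 805 CPM, with the nearest Axl KO mouse at 715 CPM, and Rgs5 makes up most of that sum. The summed level of the endothelial markers in WT replicate 5 was 980 CPM, with the nearest WT mouse at 748 CPM. Axl in Axl KO replicate 4 was at 0.437 CPM, with the nearest at 1.69 CPM, and rests on 3 counts.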

How the results depend on the processing

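None of the mural genes tested had an adjusted p under 0.05 under any of the 20 alternatives, and their median log2 fold change stayed between −0.17 (skeletal muscle covariate) and −0.014 (endothelial covariate); with single mice left out it ran from −0.12 to −0.020. The count of genes with an adjusted p under 0.05 was 1 in edgeR, 9 in DESeq2 and 1 under every other alternative run. Rgs5, Cspg4, Pdgfrb and Notch3 kept a negative sign under every alternative. With the skeletal muscle covariate, Kcnj8 (0.049), Acta2 (−0.18) and Cnn1 (−0.042) turned sign, and with the endothelial covariate Kcnj8 (0.0077) and Myh11 (0.037) did. With single mice left out, the log2 fold change ran from −0.12 to 0.12 for Acta2, from −0.074 to 0.027 for Myh11, from −0.18 to 0.044 for Tagln, from −0.071 to 0.055 for Kcnj8 and from −0.26 to 0.25 for Cnn1, which fell below the limit for testing in the other fits. With the replicate number as a block, the count of genes called stayed at 1 and that of mural genes at 0, and the median was −0.073; same-numbered mice had correlations from −0.36 to 0.37 and the labels name no shared litter or batch. The causes were not tested. Without a filter Trpv1 had a log2 fold change of 0.10. Depth limits Cnn1 and Trpv1, at 71 and 57 counts in all.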
